A study of Mus musculus with 2 samples.

Results

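Molecular chaperones bind unfolded or partly folded proteins and help them fold, assemble or be degraded. The 55 genes described here are a fixed list of chaperones, their cofactors and 2 heat shock factors, taken by symbol from 55536 annotated genes, and all 55 were found in the gene tables of both libraries. By the compartment of the protein, 32 are cytosolic, 8 encode the cytosolic chaperonin TRiC, 8 belong to the endoplasmic reticulum (ER), 5 to mitochondria, and 2 encode heat shock factors. By textbook inducibility, 22 are heat-inducible, 7 are induced by ER stress and 26 are in neither list. The lists were drawn up with earlier results of these data known. The tissue was the adrenal gland, taken from 2 adult females of strain B6CASTF1/J, a hybrid of C57BL/6J and CAST/Ei mice, at an age of 8 to 10 months. The labels name no agent and no engineered allele, so the 2 libraries form 1 group, and the only comparison is between them. The library called replicate 1 is from animal 1 and that called replicate 2 is from animal 3. Each library was made from 300 ng of total RNA with ERCC spike-in RNA added. Animal numbers and biosamples differ between the libraries in the labels, whereas the donor code is shared.

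The expected counts, which are estimated read numbers, summed to 40453707 in replicate 1 and 34319787 in replicate 2. The marker genes of adrenal cortex were abundant, with summed levels of 26699 and 27836 TPM (a level corrected for transcript length), and those of chromaffin cells summed to 2525 and 2283 TPM. Ratios are given as log2 of replicate 2 over replicate 1 from scaled expected counts, so a negative value means a lower level in replicate 2. Over the 12645 genes with a mean count of 100 or more, the median log2 ratio was -0.03 with an SD of 0.368 across genes. With 1 library on each side no p-value can be given, and a gene was called different when its ratio passed a stated fold and the deposited TPM intervals of the libraries did not overlap.

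HSP70 proteins hold short hydrophobic stretches of a client in a cycle driven by ATP. J-domain proteins deliver clients and start ATP hydrolysis, while HSP110 proteins and BAG proteins release the nucleotide. HSP90 then matures clients such as steroid receptors and kinases with the help of its own cochaperones. In stressed cells the transcription factor HSF1 binds heat shock elements, arrays of alternating GAA and TTC units separated by 2 bases, and raises the cytosolic and part of the mitochondrial chaperones. The unfolded protein response acts separately, through ER stress elements, on the chaperones of the ER. In the adrenal gland, cortex cells make steroids with enzymes of mitochondria and the ER, and chromaffin cells of the medulla pass secretory proteins through the ER.

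The regulatory sequences of the genes with the lowest ratios and of the leading ER chaperones are shown because they hold matches to elements of these inducible systems. They were read from the RefSeq promoter table of build GRCm38.p6 (mm10), 5′ to 3′ on the strand of the gene, and hold only bases upstream of the RefSeq start site. Capitals mark a heat shock element of 2 units (GAANNTTC or TTCNNGAA, each its own reverse complement) in the genes from Hspa1b to Hsph1. Only exact GAA and TTC units were matched, and units that differ in a letter are not marked. The stretches of these genes hold no exact element of 3 units. That of Hsph1 lies downstream of the start site and is not in the stretch shown. In Hsp90b1 and Hspa5 they mark an ER stress element, that is CCAAT and CCACG with 9 bases between them, on either strand. In Hspe1 they mark an array of overlapping elements of 3 units, and that stretch was chosen after its values were seen.
Hspa1b (chr17:34959305-34959372, minus strand): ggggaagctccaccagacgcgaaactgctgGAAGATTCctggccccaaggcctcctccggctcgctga
Hspa1a (chr17:34972223-34972290, minus strand): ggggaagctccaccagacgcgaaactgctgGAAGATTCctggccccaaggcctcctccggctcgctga
Hspb1 (chr5:135887772-135887859, plus strand): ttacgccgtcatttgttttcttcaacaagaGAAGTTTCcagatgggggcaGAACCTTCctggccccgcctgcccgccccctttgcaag
Hsph1 (chr5:149636351-149636380, minus strand): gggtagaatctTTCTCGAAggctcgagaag
Hsp90b1 (chr10:86705523-86705666, minus strand): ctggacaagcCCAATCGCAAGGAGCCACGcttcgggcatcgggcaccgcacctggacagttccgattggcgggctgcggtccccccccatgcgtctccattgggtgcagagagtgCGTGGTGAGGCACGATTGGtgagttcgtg
Hspa5 (chr2:34772020-34772048, plus strand): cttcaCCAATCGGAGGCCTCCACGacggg
Hspe1 (chr1:55088053-55088082, plus strand): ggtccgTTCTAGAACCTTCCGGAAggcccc

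The stretches of Hspa1a and Hspa1b are the same, and 247 of the 250 bases upstream of their start sites are identical. The stretches of Hsph1, Hspa5 and Hspe1 overlap an annotated untranslated region of an alternative transcript, of Hspd1 in the case of Hspe1, and are therefore shown as the site alone. The other stretches overlap no annotated untranslated region. Hspd1 and Hspe1 lie head to head on chromosome 1, so that 285 bases of their promoter windows are shared and the array is the same DNA for both genes.

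Promoter windows from 250 bases before to 50 bases after a start site were matched for 44 of the 55 genes. A heat shock element of 3 units was present in 5 of the 44 (Chordc1, Dnajb6, Hspd1, Hspe1 and Hsph1), against 0.662% of 27025 genes and 0.603% of all 32851 promoters in the table. The 2-unit form, which any 3-unit element also contains, was present in 19 of the 44, against 17.0% of genes and 15.1% of promoters. By class it was found in 13 of 18 heat-inducible genes, in 6 of 21 genes of neither list, and in 0 of 5 ER-stress-inducible genes. The ER stress element showed the reverse distribution: Hspa5, Hsp90b1 and Dnajc3 held it, which are 3 of the 5 matched ER-stress-inducible genes, against 0.137% of genes and 0.119% of promoters. A match describes letters in a window and does not show that a factor binds there. Imperfect elements were not counted.

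**Figure D1:**
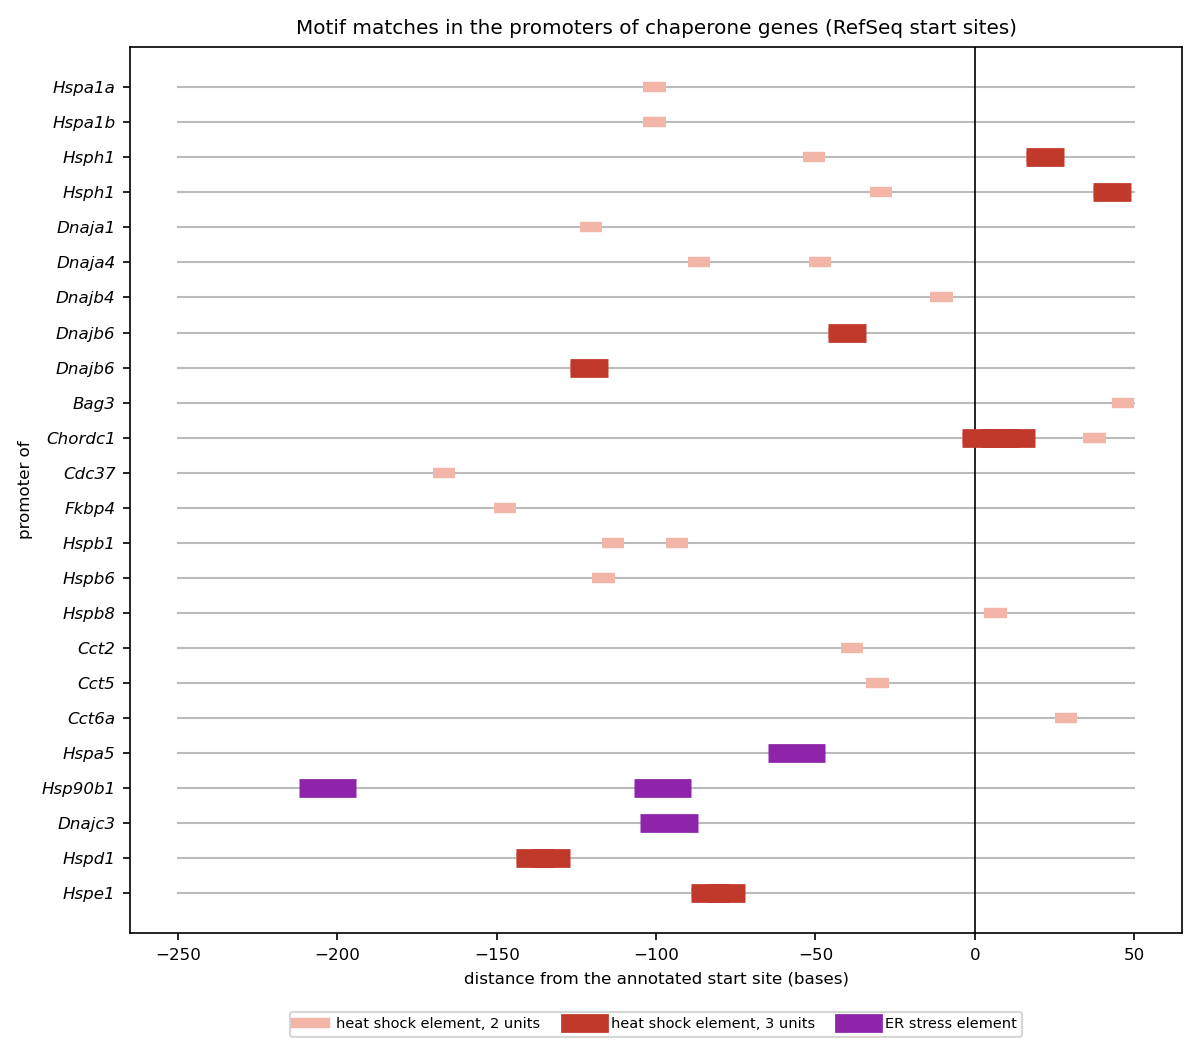
Position of heat shock elements of 2 units (pale red) and 3 units (dark red) and of ER stress elements (purple) relative to the RefSeq start site, in bases, for each promoter window of a chaperone gene that holds at least 1 of them. Grey lines are the windows, from 250 bases before to 50 after the start site, and a gene with more than 1 start site has more than 1 line. The ER stress elements stand in the promoters of Hspa5, Hsp90b1 and Dnajc3, and none of those windows holds a heat shock element.

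All 55 genes were expressed at 1 TPM or more in both animals, 49 of them at 10 TPM or more and 11 at 100 TPM or more. Their mean counts were all at 100 or more, the lowest being 281.5, so no gene was lost to the filter. Together they held 1.85% of the TPM of nuclear protein-coding genes in replicate 1 and 1.49% in replicate 2. The cytosolic genes took 60.8% and 54.5% of the summed chaperone TPM, mitochondrial genes 17.1% and 19.8%, ER genes 11.2% and 13.3%, and TRiC genes 10.5% and 11.9%. Hsp90ab1 and Hspa8 alone took 32.05% and 27.98%. The median gene of each compartment ranked differently from these sums. Mitochondrial chaperones had the highest median level at 213 ± 13.99 TPM (SD, n = 2), followed by TRiC at 77.1 ± 3.50 TPM, cytosolic genes at 53.9 ± 7.32 TPM and ER genes at 46.5 ± 10.2 TPM. The cytosolic and ER medians differed by less than the SD of the ER median. The ER median was 53.7 TPM in replicate 1 and 39.3 in replicate 2, the midpoint of a wide gap between neighbouring genes. These genes were Dnajc3 and Hyou1 in replicate 1, and Dnajc3 and Serpinh1 in replicate 2. The summed ER levels were 733 and 709 TPM.

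**Figure D2:**
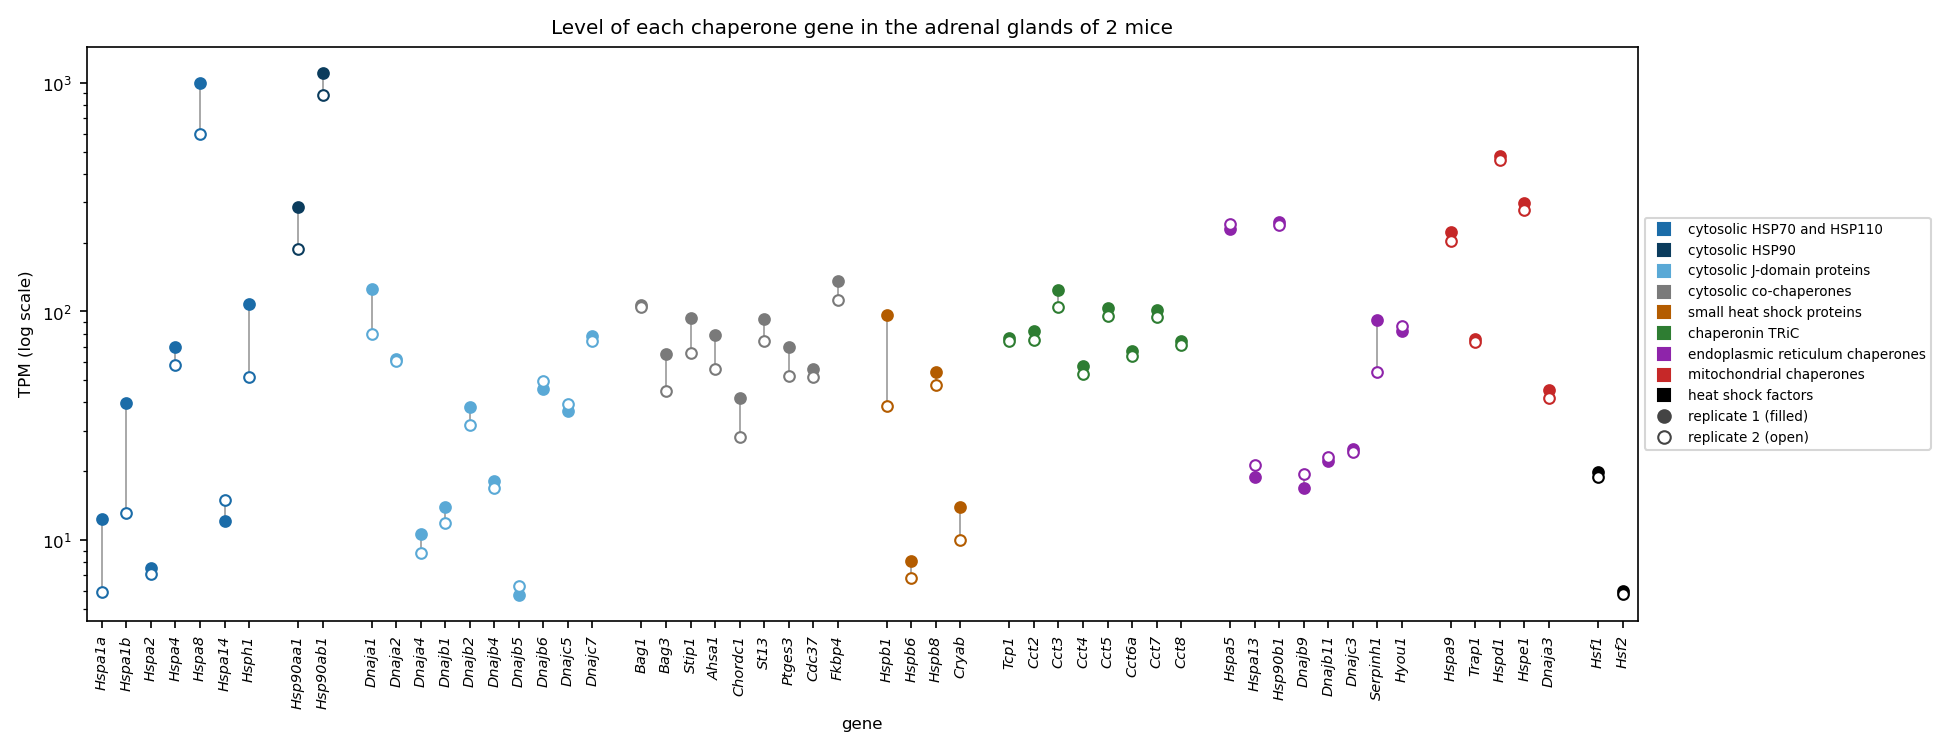
Level of each chaperone gene in TPM (log axis) in replicate 1 (filled circles) and replicate 2 (open circles), joined by a line and coloured by group. Hsp90ab1 and Hspa8 stand highest, and the widest gaps between the animals are those of Hspa1b, Hspb1, Hsph1 and Hspa1a.

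Most members were lower in replicate 2. The log2 ratio was below 0 for 49 of the 55 genes, against 55.7% of all genes tested, and the median over the list was -0.23. At least 2-fold lower levels in replicate 2 were called for 4 genes (Hspa1a, Hspa1b, Hsph1 and Hspb1), and the same call was made for 0.696% of all genes tested. No member was called at least 2-fold higher, a call made for 0.498% of all genes. At 1.5-fold, 12 members were called lower, against 2.58% of all genes, and 0 higher, against 2.44%. The 8 members added at 1.5-fold were Hspa8, Hsp90aa1, Dnaja1, Bag3, Stip1, Chordc1, Cryab and Serpinh1.

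All 12 of these genes were on the heat-inducible list. Because that list was drawn up with earlier results of these data known, the contrast of classes is a description and not a test. The median log2 ratio was -0.62 over the 22 heat-inducible genes, -0.19 over the 26 genes of neither list and -0.02 over the 7 ER-stress-inducible genes. Every heat-inducible gene was below 0, in a range from -1.69 to -0.14, whereas 4 of the 7 ER-stress-inducible genes were below 0. By compartment, the 19 cytosolic heat-inducible genes had a median of -0.63, in a range from -1.69 to -0.16. The 2 mitochondrial ones, Hspd1 and Hspe1, had a median of -0.17. Serpinh1, the heat-inducible gene of the ER, was at -0.89. Among cytosolic genes, the 13 that are in neither list had a median of -0.12. By compartment alone the medians were -0.39 for cytosolic genes, -0.23 for TRiC, -0.20 for mitochondrial genes and -0.03 for ER genes.

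**Figure D3:**
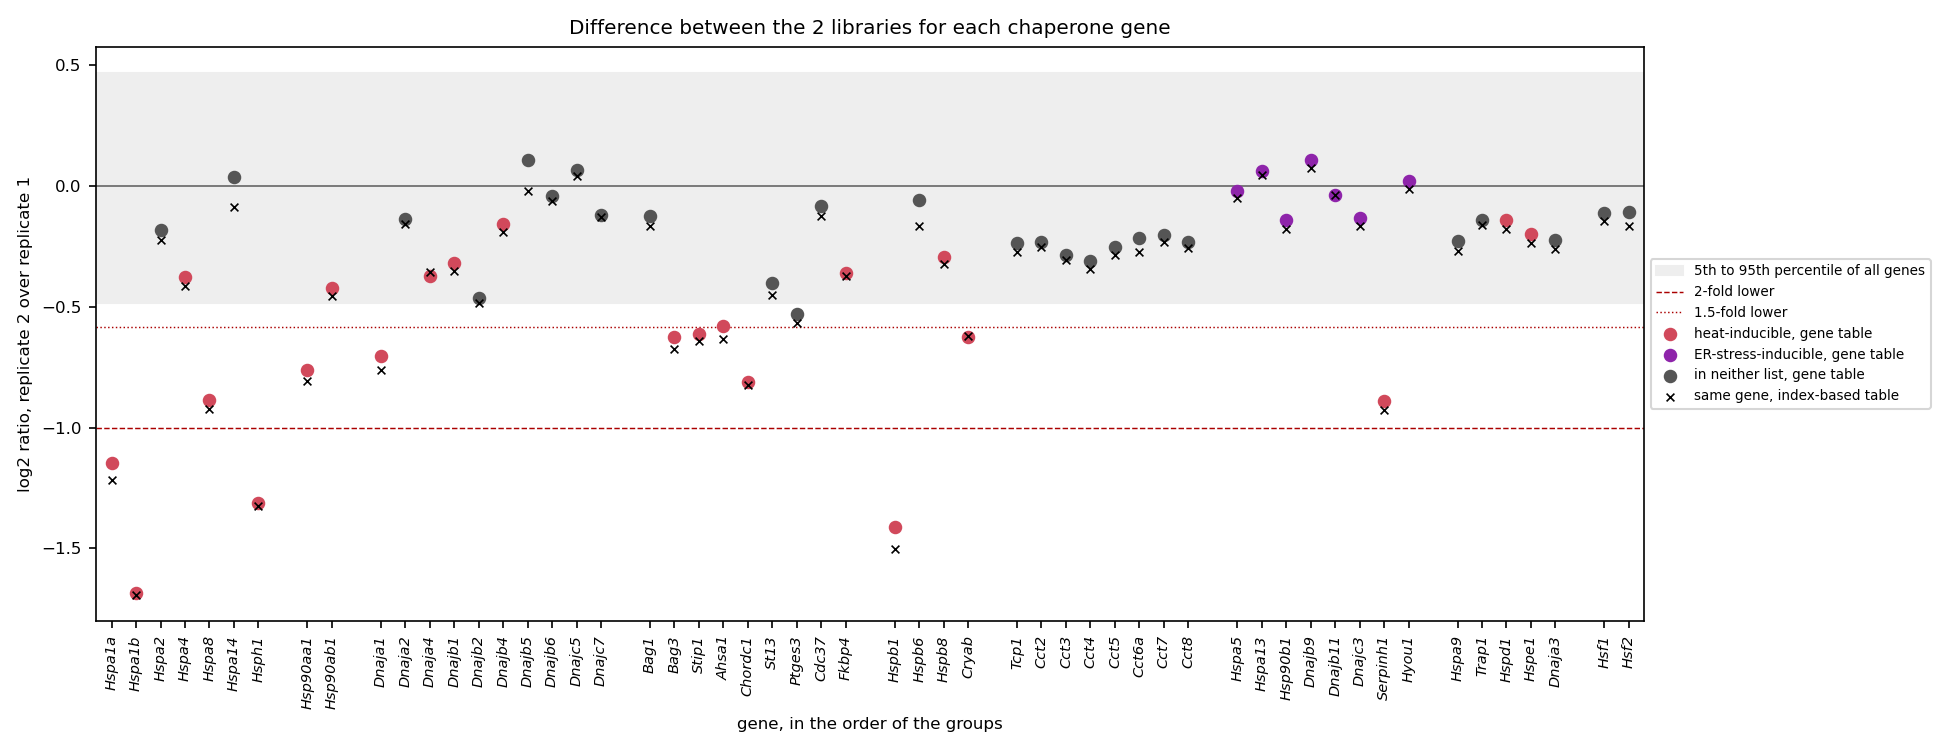
Log2 ratio of replicate 2 over replicate 1 for each gene in the gene table (circles, coloured by inducibility class) and in the index-based table (crosses). The grey band spans the 5th to 95th percentile of all genes, from -0.48 to 0.47, the dashed line marks 2-fold lower and the dotted line 1.5-fold lower. All genes past the dotted line in the gene table are heat-inducible, and the ER-stress-inducible genes lie close to 0.

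Among the cytosolic HSP70 and HSP110 genes, Hspa8 (HSC70), which is expressed without stress and is also on the heat-inducible list, was by far the most abundant, at 995.4 TPM in replicate 1 and 599.6 in replicate 2. It ranked 18 among 22016 protein-coding genes, and its log2 ratio was -0.88. The deposited TPM intervals, whose level is not stated, were 959.6 to 995.9 in replicate 1 and 572.4 to 604.3 in replicate 2, far apart. The stress-induced Hspa1b stood at 39.59 and 13.10 TPM, a log2 ratio of -1.69 that was the lowest of the list. Its neighbour Hspa1a, which encodes nearly the same protein, stood at 12.34 and 5.94 TPM, with a log2 ratio of -1.15. Hspa1b lies at chr17:34956436-34959238 and Hspa1a at chr17:34969190-34972156, both on the minus strand and both with 1 annotated transcript.

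The reads of Hspa1a and Hspa1b cannot be fully told apart. Of the 100-base words of the Hspa1a transcript, 47.1% also occur in Hspa1b, and 49.9% of those of Hspa1b occur in Hspa1a. Their sum does not depend on how reads were divided between them, and it was 51.9 TPM in replicate 1 and 19.0 in replicate 2, a log2 ratio of -1.53. Hspa8 exceeded that sum 19.2-fold in replicate 1 and 31.5-fold in replicate 2. All 3 genes are on the heat-inducible list and were lower in replicate 2, with Hspa8 the least so.

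Hsph1, the HSP110 that exchanges nucleotide on HSP70, was at 108.3 TPM in replicate 1 and 51.7 in replicate 2, with a log2 ratio of -1.31. It lies at chr5:149614287-149636376 on the minus strand and shares no 100-base word with another gene. Its relative Hspa4 was at 69.9 and 58.5 TPM, a log2 ratio of -0.38. The testis-enriched Hspa2 (7.54 and 7.08 TPM) and the ribosome-associated Hspa14 (12.2 and 14.9 TPM) had ratios of -0.18 and 0.04. Both are outside the heat-inducible list. The intervals of Hspa2 overlapped, whereas those of Hspa14 did not (11.4 to 13.2 and 13.6 to 16.4), and its log2 ratio was 0.29 with deposited TPM.

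Both cytosolic HSP90 genes are on the heat-inducible list, and both were lower in replicate 2. Hsp90ab1, the form expressed highly without stress, was the most abundant chaperone gene, at 1104 and 889 TPM and rank 9 among protein-coding genes, with a log2 ratio of -0.42. The more strongly induced Hsp90aa1 was at 285.7 and 187.1 TPM with a log2 ratio of -0.76. Hsp90ab1 therefore exceeded Hsp90aa1 3.86-fold in replicate 1 and 4.75-fold in replicate 2. The Hsp90ab1 TPM values lie slightly above the upper bounds of their own deposited intervals (1098 and 883.9), as do those of Hspd1 and Hspa9.

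Of the 10 cytosolic J-domain genes, Dnaja1, a heat-inducible partner of HSC70, was the most abundant and the only 1 called. It stood at 125.9 TPM in replicate 1 and 79.8 in replicate 2, a log2 ratio of -0.70. Its close relative Dnaja2 is not on the heat-inducible list and was at 62.1 and 60.9 TPM, a log2 ratio of -0.14. Dnajb1, the classical heat-inducible partner of HSP70, was low at 13.9 and 11.9 TPM with a log2 ratio of -0.32. Dnajb1 thus did not have the large difference of Hspa1b. Dnaja4 and Dnajb4, which are also heat-inducible, had ratios of -0.37 and -0.16. Dnaja4 shares 44.1% of its exon bases with Wdr61 on the opposite strand, so its counts are uncertain.

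The remaining J-domain genes are outside the inducible lists. Dnajc7, which binds HSP70 and HSP90, was at 78.3 and 74.4 TPM, and Dnajb6, a suppressor of protein aggregation, was at 45.8 and 49.8 TPM. Their log2 ratios were -0.12 and -0.04. Dnajc5, the cysteine string protein of secretory vesicles, stood at 36.8 and 39.2 TPM and had a log2 ratio of 0.07. Dnajb5 had a log2 ratio of 0.11 at 5.78 and 6.31 TPM. Dnajb2 was the exception in this set, with a log2 ratio of -0.46 at 38.2 and 32.03 TPM.

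Cochaperones of the HSP70 and HSP90 cycle were lower in replicate 2 in all 9 cases, with a median log2 ratio of -0.53. Chordc1, an HSP90 partner, stood at 41.8 and 28.4 TPM and had the lowest ratio of them at -0.81. The log2 ratio of its TPM was smaller in size, at -0.56, and the effective length that the authors' table gives the gene was 1834 bases in replicate 1 and 1641 in replicate 2. Bag3, a BAG protein of stress-induced autophagy, was at 65.0 and 44.9 TPM with a log2 ratio of -0.63. Stip1 (HOP), which links HSP70 to HSP90, was at 93.9 and 65.5 TPM with a ratio of -0.61. These 3 passed 1.5-fold, and each is heat-inducible. With deposited TPM in place of scaled counts, all 3 fell short of it, Bag3 at -0.53 and Stip1 at -0.52.

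Ahsa1, which stimulates the ATPase of HSP90, lay just short of that limit at 78.7 and 56.1 TPM and a log2 ratio of -0.58, where the limit is 0.585 in size. Ptges3 (p23), which closes the HSP90 cycle, was at 69.8 and 52.0 TPM with a ratio of -0.53, the lowest of the genes in neither list. St13 (HIP) at 92.3 and 74.2 TPM had -0.40, and Fkbp4, the immunophilin of steroid receptor complexes, had -0.36 at 135.6 and 112.4 TPM. Bag1 was at 107.0 and 104.2 TPM and Cdc37, which loads kinases onto HSP90, at 56.1 and 51.5 TPM. Bag1 and Cdc37 had the ratios nearest 0, at -0.12 and -0.08.

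The small heat shock proteins, which hold unfolded proteins without ATP, differed widely among themselves. Hspb1 (HSP25) was at 96.6 TPM in replicate 1 and 38.7 in replicate 2, with deposited intervals of 91.1 to 98.4 and 35.5 to 40.3, and its log2 ratio was -1.41. It lies at chr5:135887919-135889563 on the plus strand. Cryab (alpha B-crystallin) was at 13.9 and 10.1 TPM with a ratio of -0.63, which with deposited TPM was -0.47 and short of 1.5-fold, and Hspb8, the partner of BAG3, was at 54.5 and 47.6 TPM with -0.29. Hspb6 was at 8.09 and 6.86 TPM with -0.06, and its intervals overlapped.

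Small heat shock proteins are also abundant in muscle. The markers of smooth muscle and pericytes, of adipocytes and of brown fat were lower in replicate 2, like Hspb1. The summed level of skeletal muscle markers, which was very low, was not. All 7 measured smooth muscle and pericyte markers were below 0, with a median log2 ratio of -0.72 and summed levels of 91.9 and 67.5 TPM, and 2 of them were called 2-fold lower. All 10 adipocyte markers and all 8 brown fat markers were below 0, with medians of -0.93 and -1.54. The 2-fold lower call was made for 4 of the 10 adipocyte markers and for all 8 brown fat markers, against 0.696% of all genes. Their summed levels were 2007 and 1125 TPM for adipocyte markers and 541 and 185 TPM for brown fat markers. Skeletal muscle markers summed to 1.80 and 2.74 TPM and Myh4 was at 0. In RNA from whole tissue, fewer cells of a type and less RNA per cell cannot be told apart. The part of these tissues in the lower chaperone levels was not tested.

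The 8 TRiC subunits, which form the ring that folds actin and tubulin, lay close together in ratio. Their log2 ratios ran from -0.31 (Cct4) to -0.20 (Cct7), with a median of -0.23, and none was called. Levels ran from 58.0 and 53.5 TPM for Cct4 to 123.9 and 104.8 TPM for Cct3. The highest subunit exceeded the lowest 2.14-fold in replicate 1 and 1.96-fold in replicate 2, and the coefficient of variation across subunits was 25.5% and 22.1%. In the index-based table the highest subunit exceeded the lowest by 1.72-fold and 1.63-fold, but it was Cct2 in replicate 1 (94.2 TPM) and Cct6a in replicate 2 (82.5 TPM), with Cct3 at 85.2 and 70.9 TPM. Retained-intron transcripts held 47.0% and 47.5% of Cct3 TPM in the alignment-based table and 30.4% and 29.1% in the index-based table. Tcp1, the founding subunit, stood at 76.8 and 74.2 TPM, and the other subunits, Cct2, Cct5, Cct6a, Cct7 and Cct8, lay between 64.1 and 104.0 TPM in both animals.

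Most ER chaperones differed little between the animals. Hspa5 (BiP), the HSP70 of the ER, was at 229.7 TPM in replicate 1 and 241.4 in replicate 2, a log2 ratio of -0.02. Its intervals did not overlap (221.8 to 230.0 and 232.2 to 241.4), and its log2 ratio was 0.07 with deposited TPM. Hsp90b1 (GRP94), the HSP90 of the ER, was at 246.5 and 239.1 TPM with a ratio of -0.14, so the ratio of Hspa5 to Hsp90b1 was 0.932 and 1.01. Both hold ER stress elements in the promoter stretches shown above, and neither holds a heat shock element there. Hyou1, the HSP110 of the ER, was at 82.4 and 86.4 TPM with a ratio of 0.02. Hspa8 exceeded Hspa5 4.33-fold in replicate 1 and 2.48-fold in replicate 2, while Hspa5 itself was nearly level.

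The ER J-domain genes were lower in level, and their ratios also lay near 0. Dnajc3 (P58IPK) was at 25.0 and 24.3 TPM, Dnajb11 at 22.1 and 23.0 TPM and Dnajb9 at 16.9 and 19.4 TPM. Their log2 ratios were -0.13, -0.04 and 0.11. Hspa13, a divergent HSP70, was at 18.8 and 21.3 TPM with a ratio of 0.06. None of these 4 genes was called in either direction.

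Serpinh1 (HSP47) was the exception in the ER. It assists the folding of procollagen and, unlike the other ER genes on the list, is induced by heat shock. It was at 91.6 TPM in replicate 1 and 54.2 in replicate 2, with intervals of 88.1 to 92.8 and 51.4 to 55.9, and its log2 ratio was -0.89. Of the 8 capsule and fibroblast markers, which include collagen genes, 7 were below 0 with a median of -0.48, and their summed levels were 167.5 and 116.1 TPM. 1 of the 8 was called 2-fold lower, against 0.696% of all genes. Whether Serpinh1 differed with the number of such cells was not tested.

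Mitochondrial chaperones were abundant and nearly level between the animals. Hspd1 (HSP60), which forms the folding chamber of the matrix, was at 476.8 and 460.9 TPM and rank 51 among protein-coding genes, and its lid Hspe1 (HSP10) was at 298.7 and 276.7 TPM. Their log2 ratios were -0.14 and -0.20, and they share the 3-unit heat shock array printed above. Whether the array bears on these ratios was not tested. The ratio of Hspd1 to Hspe1 was 1.60 in replicate 1 and 1.67 in replicate 2. Hspa9 (mortalin), the motor of protein import, was at 222.6 and 202.8 TPM with a log2 ratio of -0.23. Trap1, the mitochondrial HSP90, was at 76.0 and 73.6 TPM with -0.14, and the J-domain gene Dnaja3 was at 45.4 and 41.7 TPM with -0.22.

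The HSP70 family did not divide by compartment alone. The log2 ratios of its cytosolic members, the HSP110 genes Hsph1 and Hspa4 aside, ran from -1.69 (Hspa1b) over -0.88 (Hspa8) and -0.18 (Hspa2) to 0.04 (Hspa14). This range spanned the ratios of Hspa9 in mitochondria (-0.23) and of Hspa5 in the ER (-0.02). Hspa13, also in the ER, lay just above it at 0.06. For HSP90 the log2 ratios were -0.42 and -0.76 in the cytosol, and -0.14 both in mitochondria (Trap1) and in the ER (Hsp90b1). Hspa8 exceeded Hspa9 4.47-fold in replicate 1 and 2.96-fold in replicate 2. The ratio of Hsp90b1 to Trap1 was 3.25 in both animals.

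The heat shock factors themselves were low and steady. Hsf1, the main activator of the heat shock response, was at 19.9 and 19.0 TPM with a log2 ratio of -0.11. Hsf2, a related factor, was at 5.99 and 5.83 TPM, also with -0.11. HSF1 is controlled mainly at the level of the protein, which was not measured here.

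**Figure D4:**
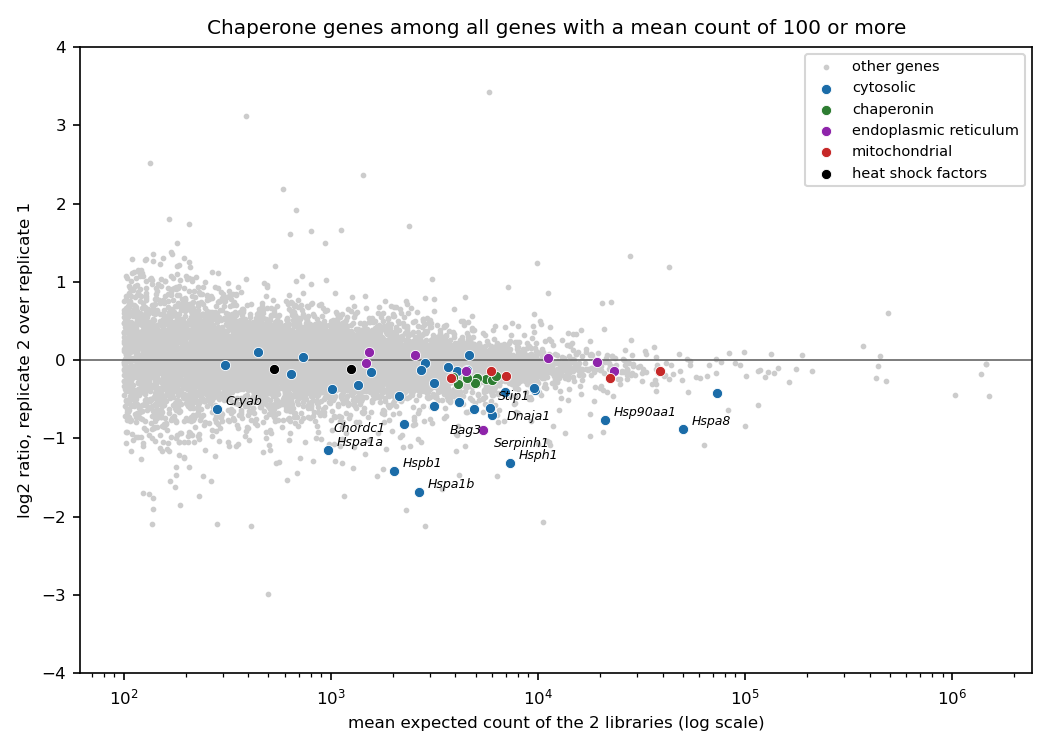
Log2 ratio of replicate 2 over replicate 1 against the mean expected count (log axis) for the 12645 genes with a mean count of 100 or more, with chaperone genes coloured by compartment and those called at least 1.5-fold lower named. The vertical axis ends at 4 in both directions, which leaves 7 genes outside, none of them a chaperone. At counts where the grey points lie close to 0, Hspa8, Hsp90aa1 and Hsph1 lie below them.

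Other folding genes, given as whole lists, differed less than the heat-inducible members. None of these 6 lists had a 2-fold call in either direction. Over all genes such calls were made for 0.696% (lower) and 0.498% (higher), so the absence of calls is near that share. The median log2 ratio was -0.09 over 27 other cytosolic chaperones and cofactors, where Bag6 (121.9 and 141.8 TPM) and Sgta (71.0 and 72.2 TPM) were highest. In that list 1 gene was called 1.5-fold lower, against 2.58% of all genes. It was the HSP110 relative Hspa4l, at 35.3 and 25.8 TPM with a log2 ratio of -0.66, and is named after its value was seen. Prefoldin and tubulin cofactors, led by Pfdn5 and Tbca, had a median of -0.02 over 12 genes. Mitochondrial folding genes and proteases, led by Lonp1 at 243.1 and 256.6 TPM, had -0.07 over 12 genes.

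In the ER, 18 further folding genes had a median of -0.01, with the lectin chaperones Calr at 216.6 and 213.6 TPM and Canx at 177.2 and 174.6 TPM in the lead. The 13 genes of the unfolded protein response had a median of 0.06. Its transcription factors Xbp1 (64.1 and 82.0 TPM) and Atf4 (53.3 and 73.3 TPM) had log2 ratios of 0.25 and 0.37, and neither was called. Ubiquitin genes and other heat shock factor targets had a median of -0.19 over 9 genes. The polyubiquitin gene Ubb, which stress also induces, was at 609.4 and 555.4 TPM with a ratio of -0.24.

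Immediate early genes respond quickly to stress and to the handling of tissue. Of the 8 on the list, 7 were below 0, with a median log2 ratio of -0.26 and summed levels of 92.3 and 82.2 TPM. Of the 7 with a mean count of 100 or more, 1 (Fos) was called 2-fold lower, against 0.696% of all genes. Endothelial and macrophage markers had medians of -0.11 and -0.12, cortex markers -0.02 and chromaffin markers -0.24. Of these lists only the macrophage one had a 2-fold call, lower for 1 of its 7 markers, against 0.696% of all genes. The lowest medians in the plot of gene lists belonged to brown fat markers, adipocyte markers, smooth muscle markers and heat-inducible chaperones, in that order.

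**Figure D5:**
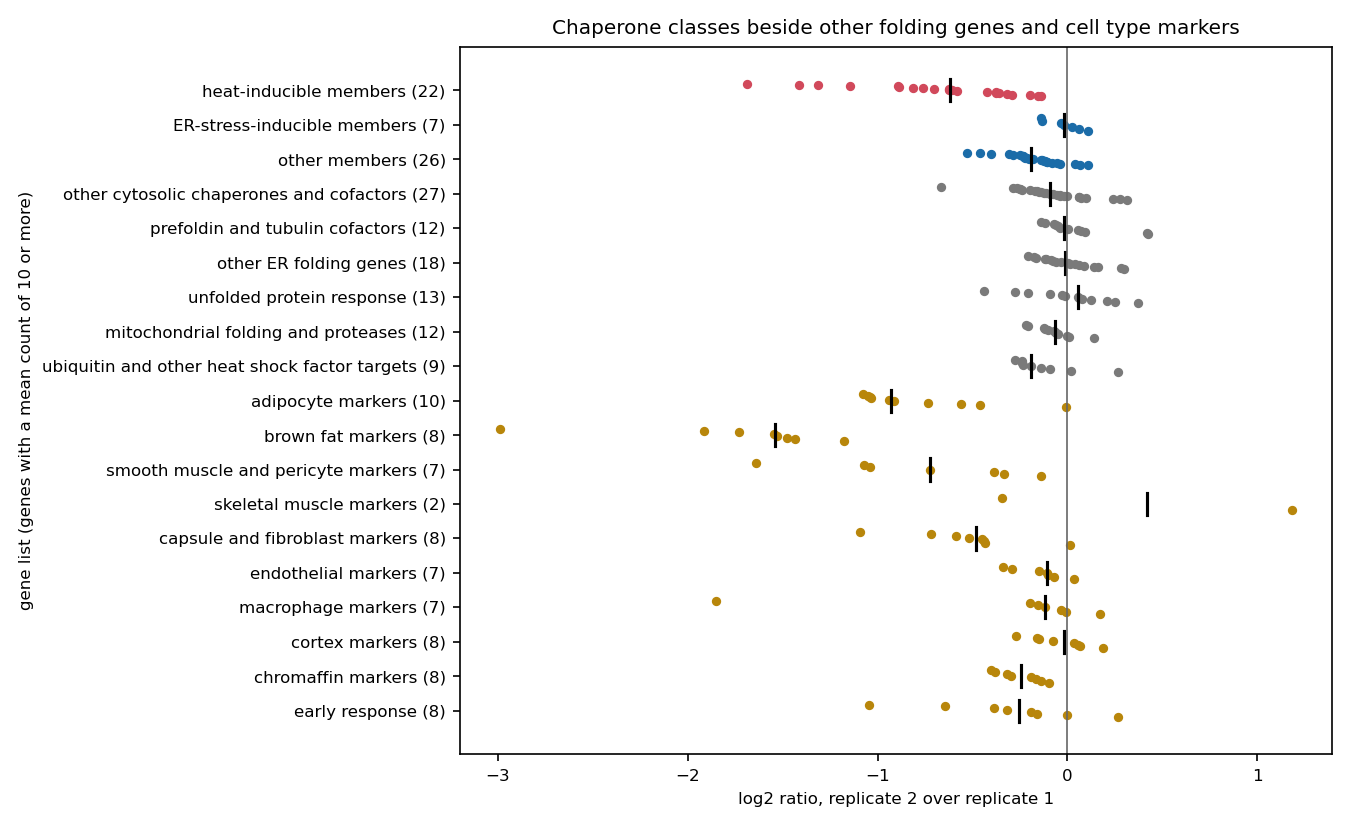
Log2 ratio of replicate 2 over replicate 1 for each gene with a mean count of 10 or more (points) and its median (black bars), for the 3 chaperone classes, 6 other folding lists and 10 lists of markers and early response genes, with the number of genes in brackets. Every heat-inducible chaperone lies below 0, as do all brown fat and adipocyte markers, while ER folding genes and cortex markers are centred near 0.

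Copies of a gene and overlapping genes limit single values. The main uncertain values were those of Hspb1, of which 44.0% of the 100-base words occur in the pseudogene Hsp25-ps1 (10.8 and 3.06 TPM), Hsp90aa1 (38.0% shared with other genes), Hspa8 (28.2%), Hspd1 (23.4%), Ptges3 (17.3%), Dnajb6 (14.6%) and Hspe1 (10.0%). The Hspa8 pseudogene Gm15459 was listed at 255.0 and 142.2 TPM, lower in replicate 2 like Hspa8 itself. No word was shared for 36 of the 55 genes, among them Hsph1, Chordc1, Bag3, Serpinh1 and Cryab. Exons of 17 genes overlap a gene on the opposite strand, and the sources do not state if strand entered the counting. Such overlaps covered 19.0% of Hspa1a exons (with Gm20481, listed at 0.06 and 0 TPM), 17.0% of Cryab exons (with Hspb2) and 12.5% of Cct6a exons (with Psph).

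More than 1 transcript is annotated for 50 of the genes, and for 47 of them 1 transcript had the largest share in each animal. It was a protein-coding transcript for 51 of the 55. The exceptions were Dnajc5 and Cct7, led by transcripts annotated for nonsense-mediated decay, Cryab, led by a retained-intron transcript, and Cct6a, led by a processed transcript. In the index-based table the leading transcript was the same as in the alignment-based table for 35 of the 50 genes, so shares of single transcripts depend on the method.

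Retained-intron transcripts of the chaperone genes stood relatively higher in replicate 2. They could be measured at a mean count of 20 or more beside coding transcripts for 29 genes, and in 27 of these the log2 ratio of retained introns lay above that of the coding transcripts, against 77.8% of 5045 genes in all. The median difference in log2 ratio was 0.78 over the 29 genes and 0.47 over the 5045. For Hspa8, the retained-intron count was 1204 in replicate 1 and 1211 in replicate 2, while the coding count was 63232 and 30347. Its retained-intron share of TPM was 6.34% and 11.2%. For Hsph1 the ratios were -0.44 for retained introns and -1.40 for coding transcripts. For Hspa8 the coding counts differed between the animals and the retained-intron counts hardly at all. Cdc37 and Hsp90ab1 were the 2 genes with the opposite order. By the index-based quantification, retained introns lay above coding transcripts in 27 of 31 genes, with a median difference of 0.85. The share over all genes was not computed by that quantification, so this count has no background beside it. The retained-intron share of Hspa8 TPM was 1.68% in replicate 1 and 4.67% in replicate 2 there. There Hsp90ab1 was among the 27 (0.38), and the opposite order was that of Cdc37, Cryab, Hspa9 and Dnaja2.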

How the data were processed

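Total RNA from 2 adrenal glands of 1 group was analysed. Reads were quantified against mm10 and GENCODE M21, per the labels and the notes deposited with each sample; which programs were used is not given there. The authors deposited expected counts (estimated, not normalized), TPM (scaled over all features of a library), FPKM, and lower and upper bounds of TPM whose level is not stated. The authors also deposited an index-based transcript table of expected counts and TPM, which was summed by gene. Features outside annotated genes (0.226% and 0.245% of counts) were left out.

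Expected counts were rounded for TMM factors of edgeR 4.0.16 (R 4.3.3) over all annotated genes. Log2 ratios used scaled counts plus 0.5. Calls needed a 2-fold or 1.5-fold ratio, a mean count of 100 and TPM intervals that did not overlap, and list medians a mean count of 10. The biological coefficient of variation was 0.152 over 16966 genes. DESeq2 1.42.0 size factors, ERCC spike-ins (91334 and 83988 counts), TPM, FPKM, the index-based table, other count limits and a pseudocount of 5 were alternatives. Spread between the 2 libraries may be technical in part, and no p-values were computed. The ratio step was tested on simulated data. Other steps used Python 3.11.15, numpy 2.4.6, pandas 2.3.3 and matplotlib 3.10.9.

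The chaperone genes and all lists were chosen with earlier results of these data known. All members could be named. Of other folding lists, the 2 genes with the highest mean TPM and any gene called 2-fold were named, and of marker lists the counts, sums and genes at 0. Promoters shown were those of members called 2-fold lower and the leading ER members with an ER stress element, at most 6, with Hspe1 added. Protein sequences were not used here. Of the genes this rule names, 1 is not reported here.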

Additional observations from a re-analysis of the deposited data

How the results depend on the processing

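The count of members at least 2-fold lower in replicate 2 was 4 with DESeq2 size factors, deposited TPM, spike-in scaling, the index-based table, a pseudocount of 5, a lower count limit and no condition on the intervals, and the counts of members 1.5-fold or 2-fold higher were 0 in each of these. At 1.5-fold the count of lower members was 12, ranging from 8 with deposited TPM to 13 with DESeq2 size factors, spike-ins or the index-based table. The calls that ended with deposited TPM were those of Bag3, Stip1, Chordc1 and Cryab. Deposited TPM moved the median of all genes from -0.03 to 0.07 on the log2 scale. The median of ER members then became 0.06, and that of ER-stress-inducible members 0.07, while the median of heat-inducible members stayed between -0.64 and -0.50 and that of cytosolic members between -0.43 and -0.27 over all alternatives. The sign of the ratio differed under some alternative for 6 members (Dnajb11, Dnajb5, Dnajb6, Hspa14, Hspa5 and Hyou1), each near 0. TPM rescaled over nuclear protein-coding genes raised every median level, to 151 for cytosolic, 131 for ER, 598 for mitochondrial and 217 for TRiC members, because fewer features share the total. The mitochondrial median was 158 TPM in the index-based table, and the cause was not tested. With 1 animal left out, median TPM ranged from 48.7 to 59.1 for cytosolic, 39.3 to 53.7 for ER, 203 to 223 for mitochondrial and 74.7 to 79.6 for TRiC members. A main transcript shared by both animals was found for 47 genes, and for 46 in the index-based table. No paired analysis was possible because there is 1 group of 2 animals.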
